A study of Mus musculus with 13 samples.

Results

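Isolated neonatal heart cells were compared with intact neonatal ventricle. The 5 samples were 2 of neonatal cardiomyocytes, 2 of neonatal cardiac fibroblasts and 1 of whole ventricle at postnatal day 1 (PN1), of 13 samples in all. Of 11501 protein-coding genes tested, 214 were at least 8-fold higher in every one of the 4 cell samples than in the ventricle, and 83 were at least 8-fold lower in every one. These genes are described as the higher set and the lower set. All mice were wild-type FvB, and the atria had been taken off in every preparation. Neonatal cardiomyocytes came from preplating with a Cellutron kit, in which other cells settle on a dish first, and fibroblasts from enzymatic digestion and preplating. The other 8 samples, which the choice of genes did not use, were ventricles at embryonic day 17 (E17), PN10, PN28 and PN90, cardiomyocytes at PN30 and PN67 obtained by Langendorff perfusion, and fibroblasts at PN28 and PN60. By their titles, the neonatal fibroblasts are PN1-3 and PN1-2 while their age field gives PN1, and the neonatal cardiomyocytes are PN1-2 and PN1.

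Some limits hold for every comparison of cells with ventricle. Cell libraries were made with Illumina TruSeq RNA kits, whereas ventricle libraries were made with ScriptSeq v2 from RNA depleted of ribosomal RNA, and fibroblast RNA was extracted with a different column kit from that of ventricles and cardiomyocytes. Cell isolation, library kit and cell composition therefore cannot be told apart, and only ratios far from those of most genes were used. PN1 ventricle had 1 sample, and a p-value covers the scatter among these libraries. The titles give the 2 samples of each neonatal cell type different age ranges, and the labels do not name the cultures or animals behind them, so how much of that scatter is biological is not known. In whole ventricle, fewer cells of a type and less RNA per cell cannot be told apart.

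Taking a tissue apart with enzymes exposes its cells to proteases, warm incubation and the loss of their contacts. Immediate early genes, such as the Fos, Jun and Egr families, are transcribed within minutes of a stimulus without new protein synthesis, and their mRNAs are short-lived. NF-kappaB drives genes of cytokines and adhesion molecules, heat shock factor drives chaperones of misfolded proteins, and NRF2 drives genes of antioxidant defence such as Hmox1. These programmes are known from many tissues dissociated for cell culture.

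Cell identity was checked first. Values are FPKM (fragments per kilobase of transcript and sequencing depth), brought to a common scale over samples. All 22 tested cardiomyocyte genes were higher in neonatal cardiomyocytes than fibroblasts and all 13 fibroblast genes were lower by limma, beside 29.2% and 28% of all 11501 genes (limma is a linear model with variances moderated across genes, and calls are at an adjusted p below 0.05). The summed FPKM of the cardiomyocyte list was 14460 and 12420 in cardiomyocytes, 1446 and 1267 in fibroblasts, 32000 in PN1 ventricle and 15610 in E17 ventricle. limma called 14 of 19 macrophage and leukocyte genes higher in cells than in the ventricle (38.2% of all genes) and 2 lower (41.6% of all genes), and the list summed to 321.2 and 456.9 in cardiomyocytes, 250.1 and 491.7 in fibroblasts and 87.7 in the ventricle. In cardiomyocytes, S100a8 (86.65 and 135) and S100a9 (83.54 and 123.3) made up much of these sums. Ptprc, Cd163 and Cd3e of that list were below the level tested. Of 28 endothelial genes, 18 were called higher and 6 lower. Their sums were 4830 and 5386 in cardiomyocytes, 1726 and 1944 in fibroblasts, 2737 in PN1 ventricle and 1067 in E17 ventricle. The part of these cell types in the higher set was not tested. Erythroid genes summed to 16940 and 22530 in cardiomyocytes, 180.4 and 79.5 in fibroblasts and 1583 in the ventricle, without Hba-a1 and Hbb-bs, which had no usable value. Atrial genes summed to 3776 and 1046 in the cardiomyocyte samples, 940.2 in PN1 ventricle and 3258 in E17 ventricle. The first cardiomyocyte sample thus stood apart from the second and from PN1 ventricle, but was near E17 ventricle. Atria had been removed in every preparation. Without the first cardiomyocyte sample, 213 of the 214 genes and all 83 still passed 8-fold.

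The 4 markers were Fosb, Atf3, Hmox1 and Hspa1a. Fosb, a partner of Jun proteins in the AP-1 transcription factor, lies at chr7:19888070-19895394 in build mm9. Its scaled FPKM was 116.3 and 100.6 in cardiomyocytes and 147.7 and 235 in fibroblasts, against 0.0396 in PN1 ventricle. Fosb had the largest excess of any tested gene. The excess, here and below, is the log2(scaled FPKM + 0.5) of the lowest cell sample minus that of the ventricle, and was 7.55. The 0.5 added before taking logs makes it too small for genes near 0 in the ventricle.

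Hmox1, which codes for the heme-degrading enzyme heme oxygenase 1 (chr8:77617490-77624495), stood at 513.1 and 663.2 FPKM in cardiomyocytes, 633.6 and 543.2 in fibroblasts and 4.16 in PN1 ventricle. Both cell types were at like levels, and the excess was 6.79. Hspa1a, an inducible chaperone of the HSP70 family (chr17:35106144-35109069), was at 57.8 and 86.9 FPKM in cardiomyocytes, 61.4 and 51.3 in fibroblasts and 0.343 in the ventricle. Its excess was 5.94. Hspa1a and its neighbour Hspa1b are near-identical copies, so the split of fragments between them is uncertain. The predicted gene Gm20481 overlaps Hspa1a on the opposite strand over 100% of its exons, and its excess of 5.92 cannot be told apart from that of Hspa1a, since no source used here says whether counting used strand.

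Atf3, a stress-induced transcription factor (chr1:192994175-193007219), was at 192.8 and 198.8 FPKM in cardiomyocytes and 108.7 and 161.4 in fibroblasts. PN1 ventricle held 5.64 FPKM and E17 ventricle 10.9. Atf3 and Hmox1 were therefore high in cells without being near 0 in tissue, whereas Fosb and Hspa1a were below 1 FPKM in PN1 ventricle. The Atf3 excess was 4.15, the smallest of the 4 markers.

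**Figure D1:**
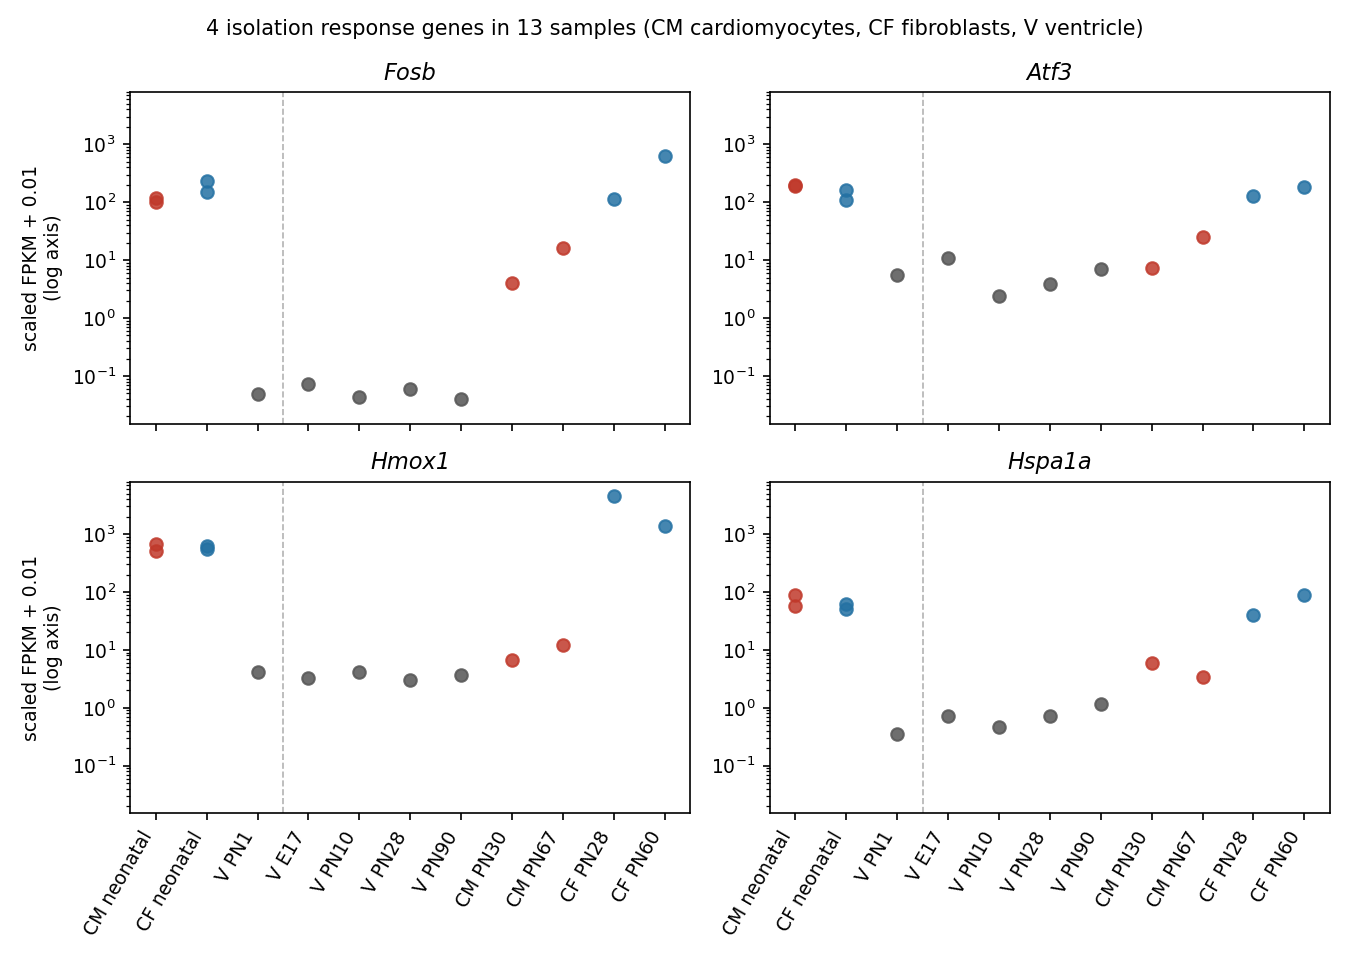
Scaled FPKM plus 0.01 (log axis) of Fosb, Atf3, Hmox1 and Hspa1a, 1 point per sample, in cardiomyocytes (CM, red), fibroblasts (CF, blue) and ventricle (V, grey), with the samples not used to choose the genes right of the dashed line. For all 4 genes the neonatal cells lie above each of the 5 ventricles, and the later fibroblasts lie above the later cardiomyocytes.

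Promoters of genes that stood out are shown for the binding motifs of these programmes. They are the 250 bases before the RefSeq start site in build GRCm38.p6, read 5′ to 3′ on the strand of the gene, with capitals marking matches to the NF-kappaB motif and the heat shock element. Fosb and Hspa1a are shown as 2 of the 4 marker genes of isolation, and the chemokine genes Cxcl1 and Cxcl2 because they hold the same capitalised stretch.
Fosb (chr7:19310046-19310295, minus strand): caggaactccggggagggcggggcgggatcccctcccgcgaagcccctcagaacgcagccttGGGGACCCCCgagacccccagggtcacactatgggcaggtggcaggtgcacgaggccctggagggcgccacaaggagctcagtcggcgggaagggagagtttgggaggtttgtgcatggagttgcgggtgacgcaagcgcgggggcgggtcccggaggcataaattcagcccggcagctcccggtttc
Hspa1a (chr17:34972157-34972406, minus strand): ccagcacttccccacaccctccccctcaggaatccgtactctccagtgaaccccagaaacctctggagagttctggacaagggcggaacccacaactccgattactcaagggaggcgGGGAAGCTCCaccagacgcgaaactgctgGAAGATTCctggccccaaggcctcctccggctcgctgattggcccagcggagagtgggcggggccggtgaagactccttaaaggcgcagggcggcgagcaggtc
Cxcl1 (chr5:90890995-90891244, plus strand): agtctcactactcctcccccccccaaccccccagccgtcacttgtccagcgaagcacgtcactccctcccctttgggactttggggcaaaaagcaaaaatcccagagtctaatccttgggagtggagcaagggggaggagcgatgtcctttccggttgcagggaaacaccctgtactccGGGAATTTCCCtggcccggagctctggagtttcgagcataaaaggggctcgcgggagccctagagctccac
Cxcl2 (chr5:90903649-90903898, plus strand): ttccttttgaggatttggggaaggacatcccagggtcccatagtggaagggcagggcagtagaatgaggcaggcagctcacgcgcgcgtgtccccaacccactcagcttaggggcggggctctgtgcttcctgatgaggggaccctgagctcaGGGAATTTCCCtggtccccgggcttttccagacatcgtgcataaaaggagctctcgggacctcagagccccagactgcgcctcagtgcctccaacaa
Fosb held 1 NF-kappaB match, GGGGACCCCC, from -188 to -179 relative to the start site. Hspa1a held the heat shock element GAAGATTC from -104 to -97 and an NF-kappaB match from -133 to -124. In Cxcl1 and Cxcl2 the palindromic stretch GGGAATTTCCC gave a match on both strands, 1 base apart. The Atf3 promoter window held none of the searched motifs other than the metal response motif. For Hmox1 no promoter entry was available, so its motifs were not examined.

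The higher set made up 1.86% of the genes tested and the lower set 0.722%. Inside the threshold of 3 on the log2 scale, the last genes of the higher set were Pdlim7 (3.01), Phc2 (3.00) and Ttyh3 (3.00), and the first outside were Ulk1 (3.00), Pnp (2.99) and Atf4 (2.99). In the lower set, Hist1h2be (3.04), Gm49369 (3.04) and Znrd1as (3.01) were inside, and Chac2 (2.98), Adamts6 (2.98) and Msi2 (2.97) outside. Of the 214 genes, 82 were below 1 FPKM in PN1 ventricle. Of the 83, 50 were below 1 FPKM in all 4 cell samples. Across all tested genes, the difference between cells and ventricle was wide, with 5% of genes below -2.46 and 5% above 2.56 on the log2 scale. limma called 38.2% of all genes higher and 41.6% lower in cells. A limma call in this comparison was therefore common and says little of a single gene. Higher calls were 47.9% of all calls, and 63.4% when mitochondrially encoded genes were removed and samples were scaled to equal sums, which moved the median over all genes from -0.07 to 0.41.

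**Figure D2:**
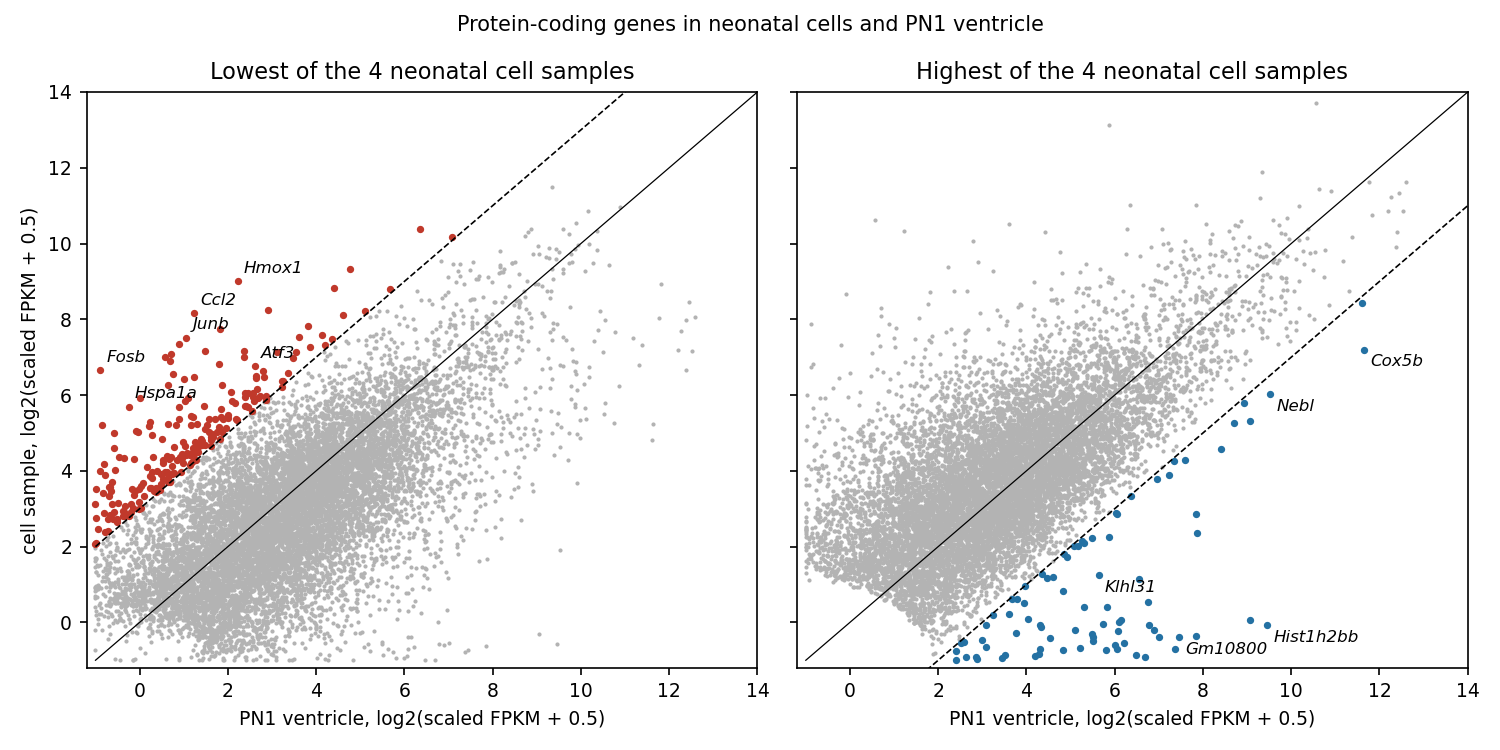
Level of each protein-coding gene in PN1 ventricle (x axis) against the lowest (left) or highest (right) of the 4 neonatal cell samples (y axis), both as log2(scaled FPKM + 0.5). The solid line marks equality and the dashed line 8-fold, with the 214 genes of the higher set in red and the 83 of the lower set in blue.

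The difference also moved with GC content. The tenth of genes with the lowest GC content (median 40.4%) had a median log2 difference of -0.96, and the tenth with the highest (median 59.97%) one of 1.07. In the 8 other samples the corresponding values were -0.92 and 0.97. The higher set had a median GC content of 56.0%, against 50.5% over all tested genes. When the median ratio was removed within 20 bins of GC content, a step chosen after the data were seen, 117 of the 214 genes and 56 of the 83 stayed past 8-fold. The part of GC content in the other genes was not tested further. Fosb (7.06), Hmox1 (6.46), Hspa1a (4.82) and Atf3 (4.08) kept GC-adjusted excesses above the threshold.

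**Figure D3:**
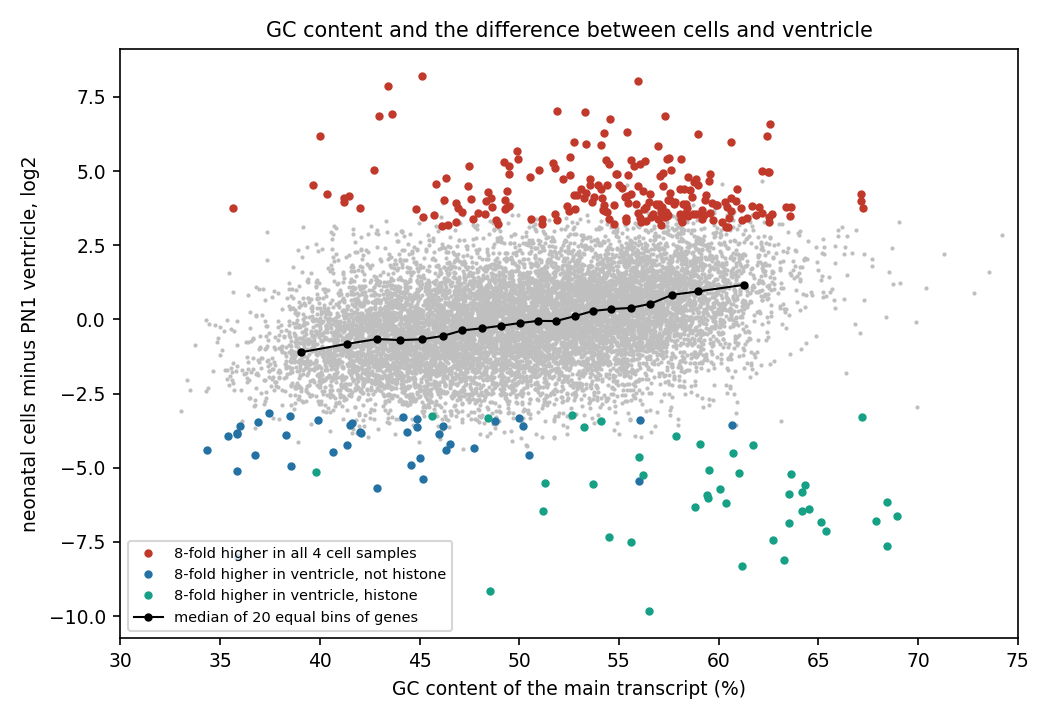
GC content of the main transcript of each gene (x axis, %) against the log2 difference of neonatal cells minus PN1 ventricle (y axis), with black points for medians of 20 equal bins. The medians rise with GC content, and the lower set splits into histone genes (green), mostly above 50% GC, and other genes (blue), mostly below.

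Of the gene lists, the immediate early genes had the highest share in the higher set. Of 29 tested members, 20 passed 8-fold in all 4 cell samples (69.0%, against 1.86% of all genes), and 14 passed after GC adjustment. For this and the other lists, the GC-adjusted background was 146 of all 11501 genes. The 20 were Fos, Fosb, Fosl1, Fosl2, Junb, Jund, Egr1, Atf3, Ier2, Ier3, Nr4a1, Nr4a2, Nr4a3, Myc, Zfp36, Dusp1, Dusp2, Dusp5, Csrnp1 and Maff. The median log2 difference of the list was 4.38, against -0.07 over all genes, and all 29 members lay above the ventricle in every cell sample, as 39.2% of all genes did. The remaining 9 were below the threshold, among them Jun, Klf4, Btg2 and Egr2. Summed over the list, FPKM was 2466 and 2553 in cardiomyocytes, 3149 and 3305 in fibroblasts and 146.2 in PN1 ventricle.

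Junb, an AP-1 subunit, had 182.1 and 218.5 FPKM in cardiomyocytes, 214.4 and 189.1 in fibroblasts and 1.58 in PN1 ventricle. Egr1, a zinc finger factor, had 142.9, 134.3, 246.1 and 272.7 in the same order of cell samples and 1.13 in the ventricle. Fos had 314.8 and 300.1 in cardiomyocytes, 119 and 172 in fibroblasts and 1.12 in the ventricle. Junb was alike in both cell types, Egr1 was higher in fibroblasts and Fos in cardiomyocytes. The nuclear receptor Nr4a1 stood at 97.0 and 94.1 FPKM in cardiomyocytes, 97.3 and 94.4 in fibroblasts and 1.18 in the ventricle. Zfp36, whose protein speeds the decay of cytokine mRNAs, had an excess of 5.68, and Myc one of 5.43.

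Of 29 tested genes of the NF-kappaB and cytokine list, 16 passed 8-fold (55.2%, against 1.86% of all genes), and 17 did after GC adjustment. They were the chemokine genes Cxcl1, Cxcl2, Cxcl3, Ccl2 and Ccl7, the cytokine and growth factor genes Il6 and Csf1, the antagonist Il1rn, the inhibitors Nfkbia, Tnfaip3, Nfkbiz and Socs3, and Icam1, Ptgs2, Relb and Ptx3. The list's median log2 difference was 4.13. Ccl2, which attracts monocytes, had 284.6 and 412.6 FPKM in cardiomyocytes, 1279 and 635.5 in fibroblasts and 1.86 in PN1 ventricle. Cxcl1, which attracts neutrophils, had 127.7 and 146.5 in cardiomyocytes, 1584 and 1247 in fibroblasts and 0.990 in the ventricle. Fibroblasts thus held more of both than cardiomyocytes. The rule that chose these genes requires both cell types to lie above the ventricle. Cxcl2 was at 0.0565 FPKM in the ventricle, against 36.6 and 43.5 in cardiomyocytes and 111.3 and 111.8 in fibroblasts. Icam1, an adhesion molecule for leukocytes, was higher in cardiomyocytes (304.8 and 423.8) than in fibroblasts (216.4 and 212.3), with 3.02 in the ventricle.

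Heat shock genes did not move as a group. Of 22 tested members, 2 passed 8-fold (9.09%, against 1.86% of all genes), Hspa1a and Hspa1b. The list's median log2 difference was 0.33. limma called 11 members higher and 7 lower, beside the 38.2% and 41.6% of all genes. Hspa1b had 38.8 and 66.6 FPKM in cardiomyocytes, 48.1 and 46.4 in fibroblasts and 0.668 in the ventricle. The cochaperones Dnajb1 and Bag3 came next, with log2 differences of 2.35 ± 0.12 (SE) and 2.25 ± 0.12, each higher than the ventricle in all 4 samples. Among antioxidant and metal response genes, 2 of 21 passed (9.52%, against 1.86% of all genes), Hmox1 and Ftl1. The median log2 difference of that list was 0.80. Ftl1, the light chain of the iron store ferritin, had 1330 and 1718 FPKM in cardiomyocytes, 1852 and 2055 in fibroblasts and 81.2 in PN1 ventricle. Its level in E17 ventricle was 204.2, which left an excess of 2.70. The NRF2 targets Txnrd1 and Slc7a11 had log2 differences of 3.08 ± 0.22 and 3.16 ± 0.30, with excesses below the threshold.

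The integrated stress response lowers general translation and turns on targets of the factor ATF4. Of 25 tested genes of this and the unfolded protein response, 8 passed 8-fold (32.0%, against 1.86% of all genes), and 4 after GC adjustment. They were Chac1, Gdf15, Trib3, Sesn2, Nupr1 and Slc3a2, the phosphatase subunit Ppp1r15a and the transcription factor Cebpb. Chac1, a glutathione-degrading enzyme, had 17.9 and 17.7 FPKM in cardiomyocytes, 41.4 and 23.6 in fibroblasts and 0.0691 in PN1 ventricle. Gdf15, a secreted stress signal, had 11.4 and 18.3 in cardiomyocytes, 32.0 and 21.6 in fibroblasts and 0.119 in the ventricle. Both were near absent in the ventricle and highest in fibroblasts. Of this list, limma called 21 higher and 3 lower, beside 38.2% and 41.6% of all genes, and the median log2 difference was 2.26.

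In the p53 and growth arrest list, 4 of 19 genes passed (21.1%, against 1.86% of all genes), Cdkn1a, Gadd45b, Gadd45g and Plk3. After GC adjustment, 1 passed. Cdkn1a, the cell cycle inhibitor p21, had 161.3 and 189.3 FPKM in cardiomyocytes, 235.2 and 214.4 in fibroblasts and 1.35 in PN1 ventricle. It stayed past 8-fold after GC adjustment, while those of Gadd45b (2.63), Gadd45g (2.55) and Plk3 (2.04) fell under the threshold. In the list of genes that respond to adhesion and to the factors SRF and YAP, 5 of 24 passed (20.8%, against 1.86% of all genes). Among them were Plaur, Ccn1, Ccn2 and Plau. Plaur, the urokinase receptor, had 75.9 and 98.96 FPKM in cardiomyocytes, 190 and 146.4 in fibroblasts and 1.05 in the ventricle. Ccn1, a matrix protein, had 304.8 and 386.6, then 729.5 and 575, and 6.96 in the ventricle. Fibroblasts were higher than cardiomyocytes for both genes.

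Single genes passed in 3 further lists, of 3, 16 and 19 tested genes, beside 1.86% of all genes. Cyp1a1, a cytochrome P450 and target of the aryl hydrocarbon receptor, had 63.6 and 48.1 FPKM in cardiomyocytes, 10.9 and 12.1 in fibroblasts and 0.00684 in PN1 ventricle, and was listed at 0 in E17 ventricle. It was 1 of 3 tested genes of its list, and was higher in cardiomyocytes than in fibroblasts (log2 difference 2.22). Pfkfb3, a glycolytic regulator, was 1 of 16 hypoxia and glycolysis genes, with an excess of 3.03 over PN1 ventricle and of 1.84 with E17 ventricle as the tissue. Cd14, a receptor for bacterial lipopolysaccharide on macrophages and other cells, was 1 of 19 macrophage and leukocyte genes. No gene passed in the fibroblast, endothelial, pericyte, Schwann cell and neuron, mesothelial, adipocyte, erythroid, atrial or cell cycle lists. Few were tested in some of these: 1 of 8 adipocyte, 4 of 23 Schwann cell and neuron and 8 of 22 erythroid genes. The top 20 held 3 more genes outside the lists. Zfp703, a transcriptional repressor, had an excess of 5.56. The histocompatibility gene H2-K1 (5.23) has near-identical paralogs, and the predicted gene Gm49450 (5.18) shares 100% of its exons with another gene on the same strand, so both are uncertain.

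Of the 214 genes, 154 were in no list. Their median excess was 3.39, against 4.12 for the 60 in lists, and 72 of the 154 and 45 of the 60 stayed past 8-fold after GC adjustment. The genes named from here to the end of the paragraph were chosen after their values were seen. Some are known from inflammation. Sele and Selp, the endothelial selectins that slow passing leukocytes, were high in both cell types. Sele had 60.7 and 72.5 FPKM in cardiomyocytes, 95 and 79.7 in fibroblasts and 1.64 in PN1 ventricle, and Selp had 20.7 and 25.5, 15.6 and 14.2, and 0.0844. The chemokine genes Ccl3, Ccl4, Ccl5, Cxcl10 and Cxcl16, the pattern receptors Tlr2, Clec4d and Clec4e, the NF-kappaB subunits Rela and Nfkb2, the TNF receptors Tnfrsf1a and Tnfrsf1b, and Acod1, an enzyme of activated macrophages, were also in the set. Clec4e had 6.95 and 10.2 in cardiomyocytes, 17.8 and 18.9 in fibroblasts and 0.0678 in the ventricle. These endothelial and myeloid genes stood beside the higher sums of the endothelial list in cardiomyocytes and of the macrophage and leukocyte list in both cell types. In fibroblasts, the endothelial sums (1726 and 1944) lay below PN1 ventricle (2737) and above E17 ventricle (1067). The part of endothelial and myeloid cells was not tested. Arc, an immediate early gene best known from neurons, had 13.03 and 17.3 in cardiomyocytes, 14.7 and 12.6 in fibroblasts and 0.146 in the ventricle. H3f3b, which codes for the replication-independent histone H3.3, had 67.7 and 69.0, 80.0 and 72.5, and 3.72. Other members were the matrix gene Eln (638.5 and 711.7, 687.3 and 872.5, and 26.5), the growth factor gene Tgfb1 and the fibronectin receptor subunit Itga5.

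**Figure D4:**
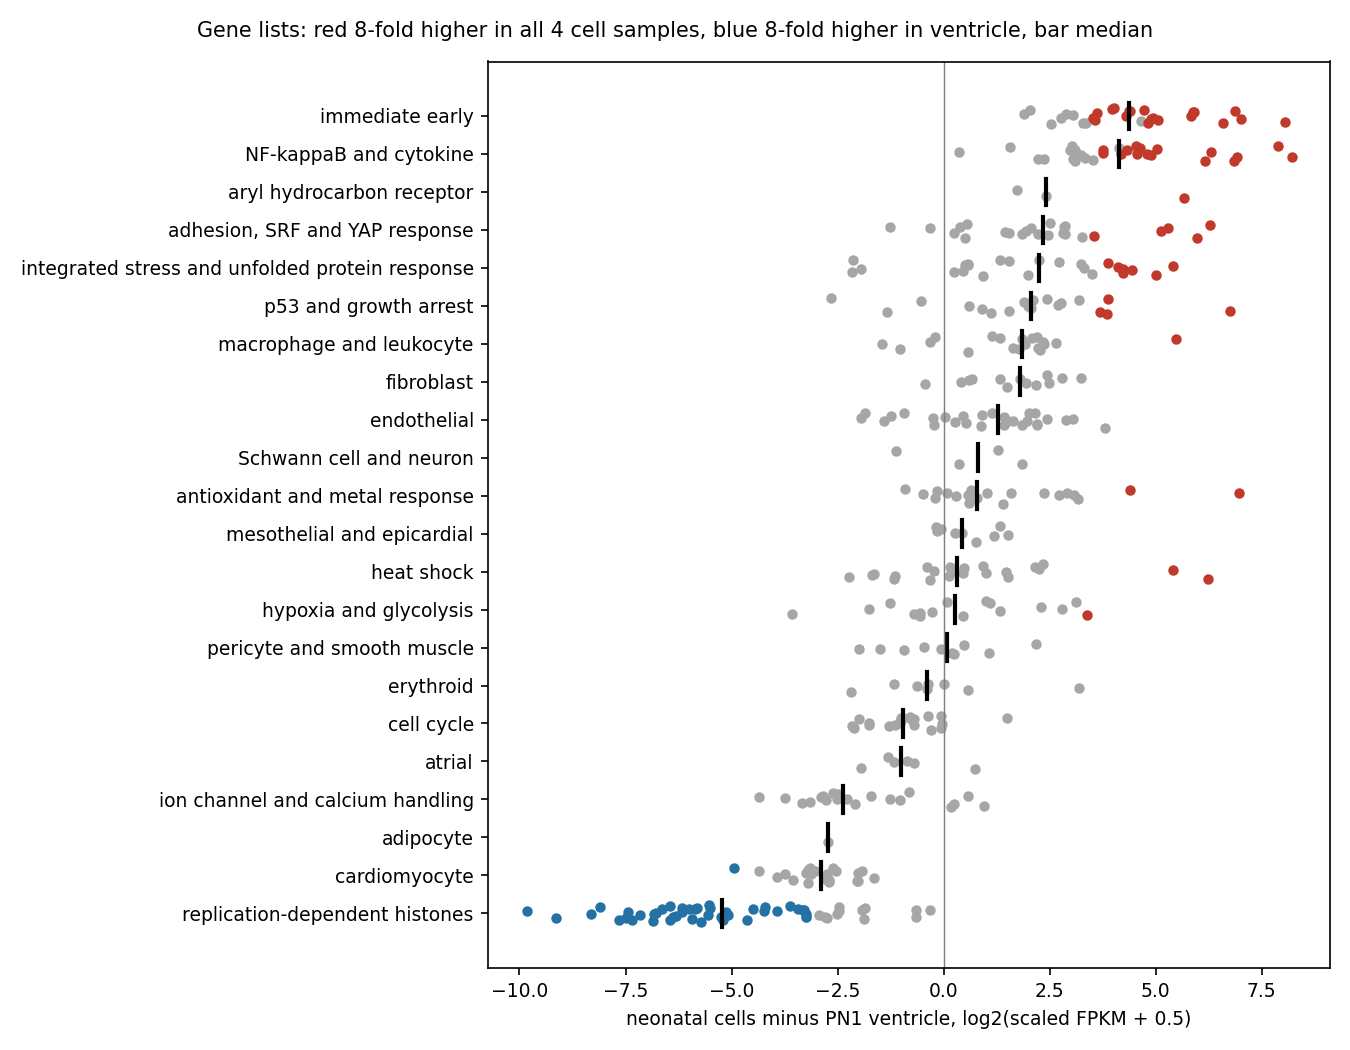
Log2 difference of neonatal cells minus PN1 ventricle (x axis) for each tested gene of 22 lists (y axis, ordered by median). Red points passed 8-fold in all 4 cell samples, blue points were 8-fold higher in the ventricle, and black bars are medians, from 4.38 for immediate early genes to -5.22 for histones.

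The cell types were compared within the higher set, where both cell types shared a library kit. Fibroblasts were higher for 109 of the 214 genes and cardiomyocytes for 17 by limma, with a median cardiomyocyte minus fibroblast difference of -0.38. Over all genes the calls were nearly even (28% and 29.2%). The same cell samples had served to choose these genes, so the calls describe the set and are not an independent test. Cxcl1 (-3.36 ± 0.13 SE) and Ccl7 (-3.14 ± 0.21) were among those far higher in fibroblasts. Fos (1.10 ± 0.17) was among those higher in cardiomyocytes. For Hmox1 the difference was -0.01 ± 0.14 and for Junb -0.01 ± 0.12, neither past the threshold. RNA kits differed between the cell types, so extraction and cell type cannot be told apart here.

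The lower set was led by histones. Of 56 tested replication-dependent histone genes, 43 were at least 8-fold lower in all 4 cell samples (0.722% of all genes), with a median log2 difference of -5.22. These genes package newly made DNA, and their mRNAs end in a stem-loop instead of a poly(A) tail. Summed over the list, FPKM was 97.0 and 103.5 in cardiomyocytes and 70.4 and 75 in fibroblasts, against 4091 in PN1 ventricle and 4655 in E17 ventricle. Every neonatal cell sample thus held far less than either ventricle. Hist1h2bb (chr13:23838603-23839071) had 0.170 and 0.445 FPKM in cardiomyocytes, 0.272 and 0.207 in fibroblasts and 697.8 in the ventricle. Hist1h4d had an excess of the ventricle over the highest cell sample of 8.99, Hist2h2ac one of 8.21 and Hist1h2bl one of 8.06. Many histone copies are near-identical, so values of single copies are uncertain. Genes of the cell cycle list differed less, with 0 of 21 past 8-fold and a median log2 difference of -0.97. limma called 16 of the 21 lower and 1 higher, beside 41.6% and 38.2% of all genes.

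The other 40 genes of the lower set had a median GC content of 42.5%, against 60.1% for its histones, and 15 of 40 stayed past 8-fold after GC adjustment, against 41 of 43 histones. Among the first 15 of them were 6 predicted genes in 2 short regions. Gm10800 and Gm10801 lie together on chromosome 2 (chr2:98506704-98507458 for Gm10800), and Gm10717, Gm10718, Gm10719 and Gm10721 on chromosome 9 (chr9:3000282-3018084 for Gm10721). These regions are known for satellite repeats, so their fragments cannot be placed on 1 copy. Gm10800 had 174.5 FPKM in PN1 ventricle and 592.2 in E17 ventricle, against 0.265 and 0.238 in cardiomyocytes and 0.113 and 0.102 in fibroblasts. Its excess of the ventricle was 7.84, and 6.75 after GC adjustment. Gm10721 (3.99) and Gm10801 (3.31) also stayed past the threshold after GC adjustment, while Gm10717 (2.78), Gm10718 (2.47) and Gm10719 (2.68) fell under it.

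Several of the remaining genes are known from heart muscle and mitochondria. Cox5b, a subunit of cytochrome c oxidase (chr1:36748332-36750230), had 3197 FPKM in PN1 ventricle, 146.5 and 131.5 in cardiomyocytes and 37.9 and 37.4 in fibroblasts. Its excess was 4.44, and 4.94 after GC adjustment. Klhl31, a muscle-enriched member of the Kelch family (chr9:77484539-77507925), had 49.1 in the ventricle, 1.88 and 1.59 in cardiomyocytes and 0.128 and 0.120 in fibroblasts. Nebl, the Z-disc protein nebulette, had 731.2 in the ventricle, 64.7 and 43.9 in cardiomyocytes and 3.36 and 3.27 in fibroblasts. All 3 genes were higher in cardiomyocytes than fibroblasts. The rule that chose them requires both cell types to lie below the ventricle. After GC adjustment the excess was 3.84 for Klhl31, and that of Nebl fell under the threshold, from 3.49 to 2.85. Dld, a subunit of the pyruvate dehydrogenase complex, had an excess of 3.82, and Oma1, a protease of the inner mitochondrial membrane, one of 3.62. After GC adjustment these were 3.00 and 3.59. Pln, which restrains the calcium pump of the sarcoplasmic reticulum, was the single member of the cardiomyocyte list in the lower set (3.17, and 2.09 after GC adjustment). Of 22 cardiomyocyte genes, 21 lay below the ventricle in every cell sample, as 42.4% of all genes did, with a median log2 difference of -2.90. Chosen after its values were seen, Dmd, the gene of dystrophin, had 150.6 in PN1 ventricle, 9.25 and 7.38 in cardiomyocytes and 14.3 and 11.5 in fibroblasts, and Ndufs7, a subunit of respiratory complex I, had 44.4, 4.20 and 3.90, and 2.96 and 2.40. The GC-adjusted excess of Ndufs7 was 4.43, while that of Dmd (2.69) was under the threshold. Rps23, Wdr92, Gpr22 and A430033K04Rik completed the named genes, and Rps23, a ribosomal protein gene with near-identical copies, is uncertain. Gpr22 also fell under the threshold with GC adjustment (2.66).

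Ventricle at E17 had not been used to choose genes. Of 211 genes of the higher set with a value there, 177 were at least 8-fold higher in every neonatal cell sample than in E17 ventricle, and the smallest log2 excess was 1.84. Of 82 genes of the lower set, 65 were at least 8-fold higher in E17 ventricle than in every cell sample, with a smallest excess of 1.41. These values share the cell samples with the comparison that chose the genes, so they describe the ventricles only.

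The 8 remaining samples, later cells and other ventricles, gave a separate measure with the same difference of kits. Of the 210 genes of the higher set tested there, limma called 209 higher in later cells and 0 lower, against 30.4% and 29.6% of all 11378 genes, with a median log2 difference of 3.16. After GC adjustment, 206 were called higher. Of the 79 tested genes of the lower set, 76 were called lower and 0 higher, with a median of -3.66, and 79 were called lower after GC adjustment. Both counts lay far above the background shares. Fosb differed by 6.16 ± 0.57 (SE, limma adjusted p = 0.000102), Hmox1 by 5.18 ± 0.37 (limma adjusted p = 3.98e-05), Hspa1a by 3.64 ± 0.30 (limma adjusted p = 6.66e-05) and Atf3 by 2.96 ± 0.53 (limma adjusted p = 0.00207). Ccl2 and Cxcl1 had no usable value in these samples, and Cyp1a1 was below the level tested. Cyp1a1 had 0.00782 and 0.0296 FPKM in cardiomyocytes at PN30 and PN67, and 3.94 and 0.426 in fibroblasts at PN28 and PN60.

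The 2 later cell types differed. Both fibroblast samples were at least 8-fold over each of the 4 other ventricles for 153 of the 210 genes (3.81% of all genes), and both cardiomyocyte samples for 8 (0.141% of all genes). The 8 were Junb, Egr1, Fos, Gm20390, Ier2, Ccnk, Eif4ebp2 and Tmem214, and 7 of them passed in fibroblasts as well. Hmox1 had 6.64 and 12.0 FPKM in cardiomyocytes at PN30 and PN67, 4497 and 1394 in fibroblasts at PN28 and PN60, and 2.99 to 4.10 in the 4 other ventricles. Hspa1a had 5.89 and 3.40 in the cardiomyocytes, 39.3 and 87.4 in the fibroblasts and 0.460 to 1.16 in the ventricles. Fosb had 4.06 and 16.5, then 115 and 619.4, and 0.0304 to 0.0633. Later cardiomyocytes lay above the ventricles for these 3 genes, and well below later fibroblasts. For Atf3 the cardiomyocytes (7.27 and 25.2) overlapped the ventricles (2.38 to 10.9), while the fibroblasts (130.4 and 186.5) did not. Langendorff perfusion and later age cannot be told apart in these cardiomyocytes.

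The lists also differed between the later cell types. Of 29 immediate early genes, 20 passed 8-fold in later fibroblasts and 4 in later cardiomyocytes. Of 27 NF-kappaB and cytokine genes, 26 and 0 did. Over all genes the shares were unlike, 3.81% in later fibroblasts and 0.141% in later cardiomyocytes. Fos had 73.0 and 216.2 FPKM in later cardiomyocytes, 100.7 and 497.6 in later fibroblasts and 0.637 to 1.66 in the ventricles. Cxcl2 had 1.23 and 4.50 in the cardiomyocytes, 6393 and 5094 in the fibroblasts and 0.0399 to 0.292 in the ventricles. Fos was therefore high in both later cell types and Cxcl2 mainly in fibroblasts.

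**Figure D5:**
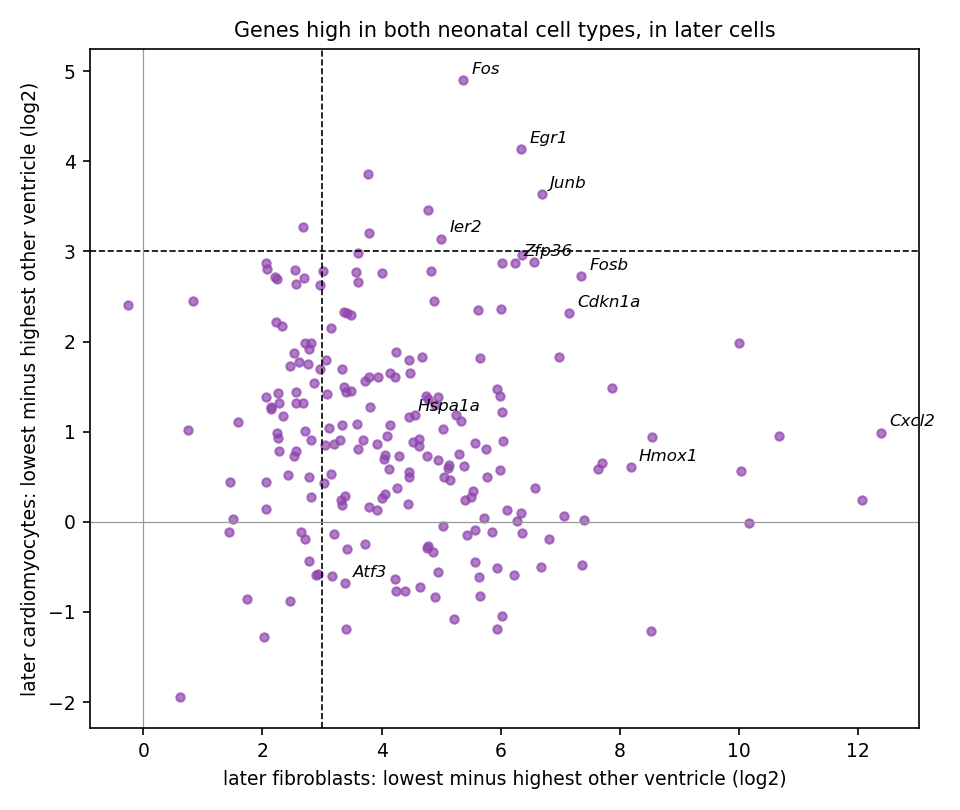
Lowest later fibroblast sample minus the highest other ventricle (x axis) against the same for later cardiomyocytes (y axis), in log2, for the 210 genes of the higher set tested there, with dashed lines at 8-fold. Fibroblasts pass for 153 genes and cardiomyocytes for 8, with Fos, Egr1 and Junb among those that pass in both.

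In the later samples, the 4 other ventricles were each at least 8-fold over all 4 later cell samples for 13 genes of the lower set (0.114% of all genes), 5 of them histones. Summed histone FPKM was 196 and 194.4 in cardiomyocytes at PN30 and PN67 and 32.8 and 36.3 in fibroblasts at PN28 and PN60. The ventricles held 1678 at PN10, 619.3 at PN28 and 672.9 at PN90. Each ventricle lay above every cell sample, by the least at PN28. Gm10800 had 309 to 858.7 FPKM in the 4 other ventricles and at most 0.0417 in the later cells. Cox5b had 1403 at E17 and 6651 to 7920 from PN10 on, against 503.7 and 441.3 in later cardiomyocytes and 28.3 and 19.4 in later fibroblasts.

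Promoter motifs were counted on both strands in windows from 250 bases before to 50 after each RefSeq start, for 221 promoters of 162 genes of the higher set and 11617 promoters of 9036 tested genes. The NF-kappaB motif was in 21.7% of the higher set's promoters and 10.6% of all, and in 38.5% of those of the NF-kappaB and cytokine list. The AP-1 motif TGACTCA was in 6.79% and 3.7%, and the antioxidant response motif TGACNNNGC in 18.6% and 14.3%. The heat shock element (GAANNTTC or TTCNNGAA) was in 14.5% and 11.8%, and in 54.2% of the promoters of the heat shock list. Shares were 3.62% and 2.97% for the cAMP response element TGACGTCA, 1.36% and 1.38% for the CArG box bound by SRF, 6.33% and 7.73% for the xenobiotic response motif (TNGCGTG) and 59.3% and 60.3% for the metal response motif TGCNCNC. The CArG box was in 21.2% of immediate early promoters and the AP-1 motif in 3.03%. Of 3 promoters of the aryl hydrocarbon receptor list, 0 held the xenobiotic response motif. The lower set had only 38 promoters of 29 genes. There the NF-kappaB motif was in 13.2%, AP-1 in 10.5%, the antioxidant response motif in 21.1% and the cAMP response element in 5.26%. The last 3 of these shares were larger than in the higher set. GC content of the promoters was 61.5% in the higher set and 60.8% over all. Motifs can overlap one another, each promoter was counted once per motif, and a match is a description and not a measured binding site.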

How the data were processed

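The deposited values were FPKM of 94696 transcripts per sample with their confidence bounds, a coverage value and a status, and the deposited coverage (signal) was used for a depth check only. TopHat2 2.0.5, Cufflinks 2.1.1 and build mm9 come from the submitters' processing notes. No source used here gives the annotation release. Cufflinks divides fragments among isoforms by an estimate, so genes with near-identical copies are uncertain. Transcripts were matched to GENCODE M21 by identifier (82379 of 94696). Those shorter than 200 nucleotides or of status LOWDATA were dropped, and 72 protein-coding genes with a HIDATA or FAIL transcript were left out, among them Myh6, Myh7, Ttn, Col3a1 and Postn. The other transcripts of a gene were summed. The tables hold no fragment totals. As a measure that grows with depth, the deposited coverage divided by FPKM had a median of 23.6 in PN1 ventricle, 24.7 and 25.1 in neonatal cardiomyocytes and 31.1 and 32.8 in neonatal fibroblasts, and the median half-width of the deposited confidence interval of FPKM was 7.18% to 7.78% of the value in these 5 samples.

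Samples were scaled by the median ratio to the geometric mean over protein-coding genes, and genes with a mean of the group means of at least 1 FPKM were kept. log2(FPKM + 0.5) was compared by the 8-fold rule and by limma 3.58.1 (R 4.3.3, eBayes with a trend, Benjamini-Hochberg adjustment over all genes tested, two-sided), with 2 residual degrees of freedom in the 5 samples and 5 in the other 8. The lone PN1 ventricle was assumed to vary like the cell groups, and ages within a later group are part of its error. Since the 8-fold rule used the neonatal comparison, its limma p-values are not given for the chosen genes. The steps were tested on simulated data. Genes named are the 4 markers, the 20 of the higher set with the largest excess, the 15 of the lower set outside histones and 4 histones, and up to 4 genes per list with the largest difference. Genes and lists were chosen with earlier results of these data known. Alternatives were other pseudocounts, scalings and filters, LOWDATA transcripts kept, E17 ventricle as the tissue, each sample left out and, chosen after the data were seen, GC adjustment. Promoters are from RefSeq. A member of the adhesion list is not reported here by name.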

Additional observations from a re-analysis of the deposited data

Results flagged for a closer look

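Some of the named genes, each far from PN1 ventricle in both neonatal cell types, differed in size between the 2 cell types by a limma test of the difference itself (adjusted p below 0.05). The values are log2 differences of cardiomyocytes minus fibroblasts. Among genes high in cells, Fosb (-0.78), Ccl2 (-1.39), Cdkn1a (-0.36), Cxcl1 (-3.36), Egr1 (-0.90), Cxcl2 (-1.47), Plaur (-0.94), Zfp703 (-0.83), Myc (-0.90) and Ccn1 (-0.91) were higher in fibroblasts, and Atf3 (0.56), Fos (1.10) and Icam1 (0.74) were higher in cardiomyocytes. Among genes low in cells, Cox5b (1.87), Klhl31 (1.84), Dld (1.24), Oma1 (1.77) and Nebl (3.82) were less low in cardiomyocytes. For reference, limma called 29.2% of all genes higher and 28% lower in cardiomyocytes, and the RNA kits of the 2 cell types differed. The same cell samples had served to choose the named genes, so these calls are not an independent test.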

How the results depend on the processing

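The higher set of 214 genes was 357 with a pseudocount of 0.1, 330 without mitochondrially encoded genes and with equal sums, 675 at 4-fold and 63 at 16-fold. The lower set of 83 genes was 53 with equal sums, 442 at 4-fold, 42 at 16-fold and 127 over all genes. In the other 8 samples, leaving out 1 at a time left 68 to 79 genes of the lower set called lower. Leaving out 1 neonatal cell sample gave 214 to 236 higher and 83 to 98 lower genes, and between 211 and 214 of the 214 and all 83 of the lower set were kept. In the limma comparisons no count of calls moved by more than 1.5 times under any alternative run. Of 56 named genes past 8-fold, 11 fell under it with GC adjustment, 6 with a pseudocount of 1, 6 with E17 ventricle as the tissue (of 55), and 1 with FPKM as deposited or equal sums, and Fosb, Atf3, Hmox1 and Hspa1a were not among them. A direction reversed, that of Krt8, at -0.25 with E17 and PN1 ventricle together as the tissue. No paired analysis was possible because the labels give no replicate numbers. Where 1 sample of a cell type was left out, the other was assumed to vary like the other groups. Depth is known only as a ratio of coverage to FPKM, so levels near 0, such as Fosb in ventricle, are read as low and not as absent.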
